A study of Mus musculus with 8 samples.

Results

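Genes of the proteasome were followed by symbol: every protein-coding gene in the count tables whose symbol begins with Psma, Psmb, Psmc, Psmd, Psme, Psmf or Psmg and a digit. This rule found 49 genes among 37310 identifiers and left out 3 pseudogenes of the family. By role they are 7 alpha and 7 beta subunits of the core, 4 inducible or tissue-restricted core subunits, 6 ATPases, 3 other subunits of the base, 8 subunits of the lid, 5 activators and inhibitors and 7 assembly factors. Psmc3ip, a meiotic recombination factor that only shares the start of the symbol, and Psme2b, a near copy of Psme2, make up the rest. The inducible catalytic subunit Psmb9 was not analysed here.

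RNA was measured by RNA-seq in 4 DKO pools and 4 wild-type pools of mouse 2-cell embryos. The DKO embryos carried knockouts of Gadd45a and Gadd45b, a pair of stress-response genes whose proteins act in cell cycle arrest and DNA repair, and came from a line bred from the single knockouts. The wild-type embryos carried neither knockout. Both groups were C57BL/6N embryos from naturally mated, superovulated females 3 to 4 weeks old, taken 20 h after the vaginal plug; the labels name no other treatment of either group. Mothers had the genotype of their embryos, so loss of the maternal and of the embryonic gene products cannot be told apart. Each pool held embryos of 1 litter, 23, 27, 28 and 35 in DKO and 23, 30, 25 and 25 in wild-type.

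The proteasome degrades proteins that carry ubiquitin chains. Its core particle is a stack of rings of alpha and beta subunits with the catalytic sites inside, and its regulatory particle has a base, whose ATPases unfold the substrate, and a lid, which removes the ubiquitin. Early embryos use it to clear proteins inherited from the oocyte while they switch to their own transcripts.

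The libraries held 21329736 to 23919114 counts on genes, and totals did not differ detectably between genotypes (exact two-sided permutation test, p = 0.286, smallest possible 0.0286). Gadd45b had 4, 14, 1 and 6 counts in the DKO pools, against 910, 946, 1395 and 808 counts in the wild-type pools. Gadd45a had 237, 247, 163 and 201 counts in the DKO pools, against 482, 341, 502 and 468 counts in the wild-type pools. No source used here names the deleted part of Gadd45a, so its remaining reads check the label only in part. DKO pool 1 stood apart from the other pools, with the lowest sample weight in limma-voom, 0.358 against 0.779 to 2.10 in the other 7 libraries. DKO pool 4 and wild-type pool 1 carried red blood cell transcripts, with 134 and 115 CPM summed over 4 blood markers against 1.56 to 3.17 CPM in the other 6 pools. No member lies on chromosome 6 or 10, the chromosomes of the 2 knocked-out genes.

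Promoter sequence was available from RefSeq (GRCm38.p6) for 41 of the 49 members. Proteasome genes of mammals are known targets of the transcription factor Nfe2l1, which binds antioxidant response elements, and many housekeeping promoters hold CCAAT boxes bound by NF-Y. The 250 bases before each start were searched on both strands for TGACNNNGC, the core of the antioxidant response element, and for CCAAT. TGACNNNGC was present in 5 of the 41 genes (12.2%), against 11.5% of 27025 genes with a window. CCAAT was present in 14 of the 41 genes (34.1%), against 37.5% of all genes, and 5 of its 14 genes were core alpha subunits. No window held both.
The 5 sequences below are the first 250 bases before the start in sense orientation, with a motif match in capitals. Psmb5 and Psmb6 show the catalytic subunits with a TGACNNNGC match, Psmc1 has a CCAAT match, and Psmd5 and Psme4 are members with neither. The catalytic subunit Psmb7 had no window and was not searched.
Psmb5 (chr14:54617996-54618245, minus strand): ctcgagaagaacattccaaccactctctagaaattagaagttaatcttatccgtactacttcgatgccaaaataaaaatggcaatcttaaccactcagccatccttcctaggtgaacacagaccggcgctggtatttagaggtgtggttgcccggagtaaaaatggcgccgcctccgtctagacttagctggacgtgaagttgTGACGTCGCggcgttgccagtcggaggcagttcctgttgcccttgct
Psmb6 (chr11:70525107-70525356, plus strand): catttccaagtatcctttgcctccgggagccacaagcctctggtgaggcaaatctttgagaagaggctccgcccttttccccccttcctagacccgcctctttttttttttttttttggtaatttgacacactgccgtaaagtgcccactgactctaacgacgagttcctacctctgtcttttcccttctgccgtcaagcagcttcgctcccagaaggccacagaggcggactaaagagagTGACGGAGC
Psmc1 (chr12:100109952-100110201, plus strand): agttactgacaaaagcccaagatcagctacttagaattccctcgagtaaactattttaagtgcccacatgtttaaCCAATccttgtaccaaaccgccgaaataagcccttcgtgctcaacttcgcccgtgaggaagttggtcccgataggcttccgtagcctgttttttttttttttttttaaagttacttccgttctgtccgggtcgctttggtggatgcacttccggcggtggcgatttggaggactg
Psmd5 (chr2:34870963-34871212, minus strand): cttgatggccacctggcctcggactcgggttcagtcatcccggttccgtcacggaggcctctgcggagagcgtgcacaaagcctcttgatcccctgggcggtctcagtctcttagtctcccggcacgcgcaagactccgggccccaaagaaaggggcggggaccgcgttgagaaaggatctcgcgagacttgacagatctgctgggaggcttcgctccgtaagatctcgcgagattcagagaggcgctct
Psme4 (chr11:30771525-30771774, plus strand): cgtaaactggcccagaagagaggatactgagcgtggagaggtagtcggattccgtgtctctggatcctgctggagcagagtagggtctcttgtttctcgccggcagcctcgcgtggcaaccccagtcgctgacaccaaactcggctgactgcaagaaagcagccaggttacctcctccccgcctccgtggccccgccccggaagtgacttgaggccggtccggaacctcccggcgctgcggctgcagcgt
The matches lie 47 bases before the start in Psmb5, 9 bases before it in Psmb6 and 175 bases before it in Psmc1. Psmd9, Psmc6 and Psmd12 also held TGACNNNGC, 31, 227 and 247 bases before their starts. A match is a description of the letters and shows no binding.

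All 49 members were counted in at least 1 pool, and 48 passed the filter on low counts. Levels per length differed widely between members. They are given as counts per kilobase of exon scaled to the same total in each pool (TPM-like), so that genes can be compared. These levels depend on the length used. With the longest annotated transcript as the length, the mean of Psma1 was 509 instead of 256, and Psmd2 (34.2) lay below Psmb3 (34.9). The alpha subunit Psma6 was highest, at 948 ± 287 in DKO and 1300.2 ± 318 in wild-type pools (SD, n = 4 each). The lid subunit Psmd7 followed at 657 ± 164 in DKO and 829 ± 118 in wild-type pools, and then the beta subunit Psmb2 at 581 ± 122 in DKO and 661 ± 30.4 in wild-type pools. In DKO pools the SDs of Psma6 and Psmd7, and of Psmd7 and Psmb2, overlap, and in wild-type pools those of neither pair do. In DKO pool 1 Psmb2 was above Psmd7, at 453 against 412. The lowest of the 31 constitutive subunits of the core, base and lid were Psmd3 at 22.5 ± 2.86 in DKO and 18.7 ± 1.60 in wild-type pools and Psmb3 at 24.6 ± 9.15 in DKO and 32.1 ± 6.75 in wild-type pools. The constitutive subunits thus spanned more than an order of magnitude in RNA. Assembly factors had a median member level of 28.6 and ATPases one of 148. The sum over members was 7966 ± 1482 in DKO and 9401 ± 1051 in wild-type pools (SD, n = 4 each). Members took 0.615%, 0.917%, 0.808% and 0.784% of the counts in DKO pools 1 to 4, against 0.892%, 0.923%, 0.823% and 1.00% in wild-type pools 1 to 4. DKO pool 1 was lowest and wild-type pool 4 highest in this share.

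**Figure D1:**
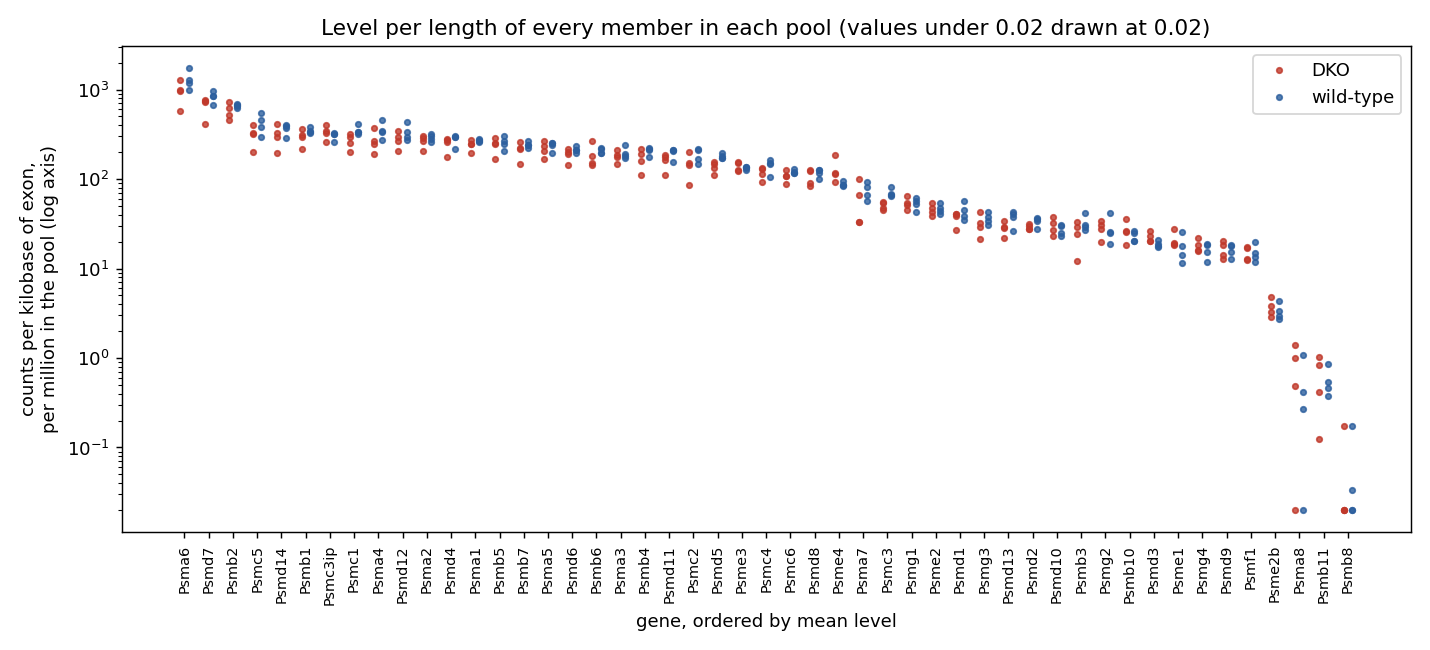
Level per length of each member in each pool, on a log axis, with DKO pools in red left of wild-type pools in blue. Psma6 is highest. By mean over pools, Psma8 and Psmb11 (tissue-restricted) and Psmb8 (inducible) lie more than an order of magnitude below every other member except Psme2b.

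Nearly all constitutive subunits lay below zero, while the other members lay on both sides of it. Of 31 constitutive core, base and lid subunits, 30 had a negative log2 fold change (DKO minus wild-type), with a median of −0.30 and a range of −0.53 to 0.21. Of the 17 other members tested, 7 were negative and 10 positive, with a median of 0.04. Over all 14970 genes tested 48.8% were negative with a median of 0.012, and over the 7532 genes with a mean of at least 10 CPM 54.4% were negative with a median of −0.04. The difference between the groups of subunits was not tested. Counts are uncertain for 12 members with a near copy elsewhere in the genome, among them Psmd2 and Psmd11, and 11 members overlap another gene on the opposite strand. In pooled embryos, fewer cells with a transcript and less of it per cell cannot be told apart.

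No member passed an adjusted p of 0.05 in edgeR, DESeq2 or limma-voom, and the smallest adjusted p in edgeR was 0.469. The knocked-out Gadd45a had a log2 fold change of −1.09 in edgeR, with all DKO pools below all wild-type pools. Its adjusted p was 0.303 in edgeR and 0.128 in limma-voom, and only DESeq2 called it, at 0.000794. A member that was not called is therefore not shown to be unchanged. Over all genes, edgeR called 0.02% lower and 0.00668% higher, DESeq2 called 0.355% and limma-voom 0.0334%. At an unadjusted p under 0.05, edgeR found 5 of 48 members lower, against 4.44% of all genes, and 1 higher, against 5.79% of all genes. Among genes with a mean of at least 10 CPM, 6.45% were lower and 7.02% higher at this threshold. The 5 lower members were Psmc3, Psmc1, Psma6, Psmd13 and Psmd5, and the 1 higher was Psme4. The count of 5 was 3 without DKO pool 1 or without wild-type pool 1, 2 or 4, 10 without wild-type pool 3 and 20 without DKO pool 2, and the count of 1 was 0 without DKO pool 1 or wild-type pool 1. In 3 members, Psmc1, Psmc3 and Psmd5, all DKO pools lay below all wild-type pools, as in 2.55% of all genes. The share was 3.27% among genes with a mean of at least 10 CPM. No member had all DKO pools above all wild-type pools, as 2.79% of all genes did.

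**Figure D2:**
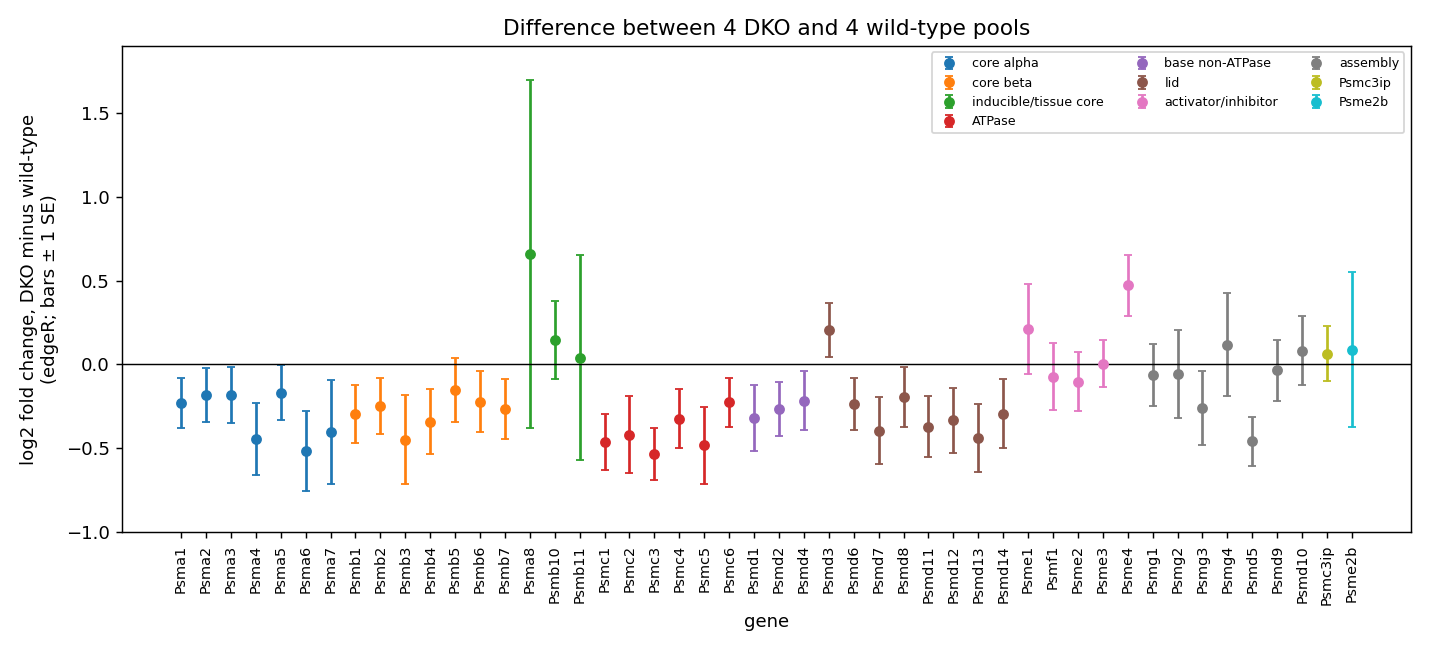
Log2 fold change (DKO minus wild-type) of the 48 members tested, with bars of ± 1 SE from edgeR, grouped by role. The constitutive core, base and lid subunits lie below zero with the exception of Psmd3, and activators and assembly factors lie on both sides.

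The position of the constitutive subunits varied among pools of the same genotype. The median of the 31 constitutive subunits, as log2 CPM minus the wild-type mean, was −0.72, 0.0078, −0.22 and −0.27 in DKO pools 1 to 4. In wild-type pools 1 to 4 it was −0.016, 0.011, −0.24 and 0.19. DKO pool 1 was lowest of the 8 pools in 28 of the 31 subunits, and wild-type pool 4 was highest in 21. DKO pool 2 lay at the wild-type level, and wild-type pool 3 lay as low as DKO pools 3 and 4. Without DKO pool 1 the median log2 fold change of the 31 was −0.19, with 30 negative. Of the 48 members tested, 37 moved by more than 1.5 times or changed sign without DKO pool 1, 27 of them to a value closer to zero. Without both DKO pool 1 and wild-type pool 4 the median of the 31 was −0.098, with 27 negative. Without the 2 pools with blood transcripts it was −0.33, with 30 negative.

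The median of oocyte-derived transcripts ran across these pools in the other direction. The 12 markers (Zp1, Zp2, Zp3, Gdf9, Bmp15, Omt2a, Omt2b, Oosp1, Nlrp5, Btg4, H1foo and Mos) were all detected. Their summed level was 11940 to 20340 CPM in DKO and 7135 to 12270 CPM in wild-type pools. Omt2a, Omt2b, Btg4 and Oosp1 made up most of this sum. Mean levels of Zp1, Zp2, Zp3 and Nlrp5 were close between genotypes. The median deviation of the 12 markers was 0.73, 0.00031, 0.27 and 0.26 in DKO pools 1 to 4, against 0.074, −0.0052, 0.28 and −0.28 in wild-type pools 1 to 4. DKO pool 1 was highest and wild-type pool 4 lowest in this median and in 8 of the 12 markers, and the part of this in the subunits' values was not tested. The other 4 did not follow it. Zp3 was lowest in DKO pool 1, at 116 CPM, and highest in wild-type pool 4, at 185 CPM, while Zp1 and Zp2 were highest in DKO pool 4 and Nlrp5 in DKO pool 3. The 8 markers of the 2-cell stage that were matched summed to 639 to 983 CPM in DKO and 512 to 843 CPM in wild-type pools. Zfp352 and Zscan4d made up most of this sum. Tdpoz4 was lower in all DKO pools, at 10.1 to 22.5 CPM, than in all wild-type pools, at 25.1 to 36.5 CPM. The other stage markers overlapped between genotypes. Zscan4c and Usp17le had lower means in DKO, and Zscan4d, Zscan4f, Zfp352, Usp17lc and Pramef6 had higher ones. Of 12 cumulus cell markers 10 had a mean under 1 CPM in each genotype. Amh, Inhba, Ptx3 and Foxl2 were at 0 in all pools. Tnfaip6 was present in every pool, at 5.534 to 10.9 CPM in DKO and 5.975 to 11.22 CPM in wild-type pools. So was Cyp19a1, at 1.581 to 4.024 CPM in DKO and 1.296 to 2.436 CPM in wild-type pools. Of 8 sperm markers 7 had a mean under 1 CPM in each genotype, and Smcp was at 0. Odf2 had 49.98 to 106.5 CPM in DKO and 57.21 to 64.98 CPM in wild-type pools, and was highest in DKO pool 1. The 4 markers of later blastomeres summed to 53.3 to 94.2 CPM in DKO and 69.9 to 124 CPM in wild-type pools. Id2 made up most of this sum, with 50.9 to 92.0 CPM in DKO and 69.0 to 122 CPM in wild-type pools. Of the 4 markers 2, Cdx2 and Krt8, were under 1 CPM.

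**Figure D3:**
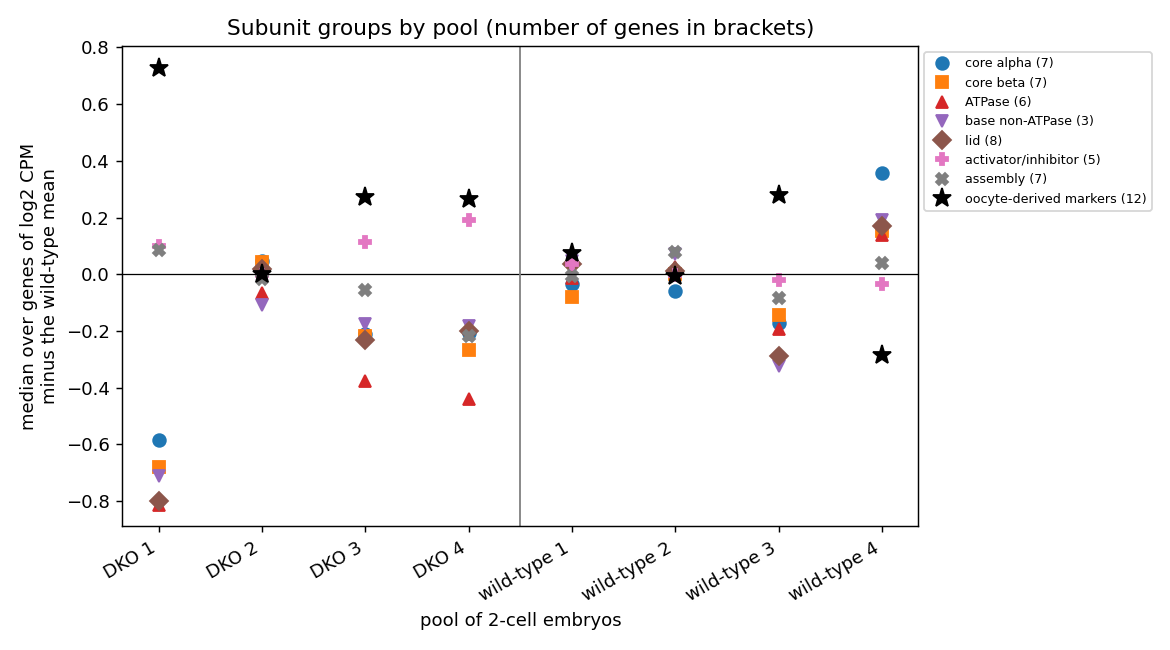
Median over the genes of each subunit group of log2 CPM minus the wild-type mean, by pool, with DKO pools left of wild-type pools, and the same for 12 oocyte-derived markers (stars). In DKO pool 1 the core, base and lid groups are lowest and the markers highest, and in wild-type pool 4 the order is turned round.

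Alpha subunits form the outer rings of the core and gate its entry. All 7 constitutive members, Psma1 to Psma7, had negative log2 fold changes, with a median of −0.23 and a range of −0.52 to −0.17. The median was −0.14 without DKO pool 1. Psma6 had 254, 594, 442 and 448 CPM in DKO pools 1 to 4, against 605, 556, 466 and 858 CPM in wild-type pools 1 to 4. Psma6 (ENSMUSG00000021024) had the smallest p of the group, and its log2 fold change was −0.52 ± 0.24 (SE, edgeR, unadjusted p = 0.0455, adjusted p = 0.482). The groups overlapped, since DKO pool 2 lay inside the wild-type range and the other DKO pools below it, and without DKO pool 1 the value was −0.34 (unadjusted p = 0.103). The least even alpha subunit, Psma7, had 36.7, 117, 74.5 and 38.7 CPM in DKO pools 1 to 4, against 66.7, 94.4, 77.8 and 113 CPM in wild-type pools 1 to 4. DKO pool 2 was the highest of the 8 pools for Psma7 while DKO pools 1 and 4 were the lowest, and its log2 fold change was −0.40 ± 0.31 (SE). The gap between genotypes in the other 5 alpha subunits was −0.45 ± 0.21 (SE) for Psma4 and −0.23 to −0.17 for Psma1, Psma2, Psma3 and Psma5. Psma2, Psma3, Psma4 and Psma5 have processed pseudogenes over 95% identical to them, so their counts are uncertain. Psma3 matches the pseudogene Gm13835 over 685 bases without a mismatch, and that pseudogene had 352 counts over all libraries.

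Beta subunits form the inner rings, and Psmb5, Psmb6 and Psmb7 carry the standard catalytic sites. All 7 beta subunits were negative, with a median of −0.26 and a range of −0.45 to −0.15, and the median without DKO pool 1 was −0.14. None reached an unadjusted p of 0.05 in edgeR, and the smallest there belonged to Psmb4. Psmb3 had the lowest log2 fold change, −0.45 ± 0.27 (SE, edgeR, unadjusted p = 0.115), and −0.43 without DKO pool 1. In limma-voom the unadjusted p of Psmb3 was 0.0433. Psmb4 had 78.1, 159.7, 114 and 140.2 CPM in DKO pools 1 to 4, against 155, 164, 133 and 170.4 CPM in wild-type pools 1 to 4. DKO pool 1 was below the other 7 pools for Psmb4, and the log2 fold change was −0.34 ± 0.20 (SE, edgeR, unadjusted p = 0.102, adjusted p = 0.534). Psmb5, the chymotrypsin-like site, had 54.3, 86.4, 80.0 and 96.2 CPM in DKO pools 1 to 4, against 90.7, 82.6, 71.5 and 107 CPM in wild-type pools 1 to 4. Psmb6, the caspase-like site, had 95.5, 129.6, 179 and 107 CPM in DKO pools 1 to 4, against 141, 151, 139 and 165 CPM in wild-type pools 1 to 4. Psmb7, the trypsin-like site, had 181, 339, 275 and 275 CPM in DKO pools 1 to 4, against 316, 311, 289 and 368 CPM in wild-type pools 1 to 4. In all of these catalytic subunits DKO pool 1 was the lowest of the 8 pools and the genotypes overlapped. Log2 fold changes were −0.15 ± 0.19 for Psmb5, −0.22 ± 0.18 for Psmb6 and −0.26 ± 0.18 for Psmb7 (SE). Their 95% intervals, −0.56 to 0.25, −0.61 to 0.17 and −0.65 to 0.12, include zero. Psmb3 and Psmb5 have processed pseudogenes more than 95% identical to them. Psmb5 was positive, at 0.10, when DKO pool 1 and wild-type pool 4 were both left out.

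Under interferon, Psmb8, Psmb9 and Psmb10 take the place of the standard catalytic subunits. Psmb8 had 0, 0, 0 and 5 counts in DKO pools and 1, 0, 5 and 0 counts in wild-type pools and failed the filter. Its share of the counts on Psmb8 and Psmb5 was 0.073% over all pools (exact Clopper-Pearson 95% interval 0.0365% to 0.131%, counting error only). Psmb10, the counterpart of Psmb7, had 11.1, 23.1, 16.2 and 16.5 CPM in DKO pools 1 to 4, against 13.3, 16.9, 16.5 and 13.8 CPM in wild-type pools 1 to 4. The genotypes overlapped, at a log2 fold change of 0.15 ± 0.23 (SE, edgeR, unadjusted p = 0.535, adjusted p = 0.825). As a share of the counts on Psmb10 and Psmb7, Psmb10 took 5.80%, 6.40%, 5.56% and 5.65% in DKO pools 1 to 4, against 4.03%, 5.14%, 5.39% and 3.62% in wild-type pools 1 to 4. Per kilobase of exon the share was larger, at 11.0%, 12.1%, 10.6% and 10.7% in DKO pools 1 to 4. In wild-type pools 1 to 4 the share per kilobase was 7.77%, 9.80%, 10.3% and 7.01%. All 4 DKO shares lay above all 4 wild-type shares by both measures, and no test of this share was run. For counts, the exact 95% intervals of the nearest pools overlapped. They were 5.02% to 6.14% in DKO pool 3 and 4.87% to 5.96% in wild-type pool 3. These intervals cover counting error only, not the spread between pools. Psma8, the alpha subunit of the testis, had 0.894, 1.32, 0.442 and 0 CPM in DKO pools 1 to 4, against 0, 1.01, 0.402 and 0.268 CPM in wild-type pools 1 to 4. Psmb11, the beta subunit of the thymus cortex, had 0.715, 1.84, 1.46 and 0.222 CPM in DKO pools 1 to 4, against 0.691, 1.56, 0.983 and 0.894 CPM in wild-type pools 1 to 4. Both had few counts, were not ordered by genotype and had a mean level per length of 0.58.

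The ATPases Psmc1 to Psmc6 form the ring of the base that unfolds substrates and threads them into the core. All 6 were negative, and their median of −0.44 was the lowest of any group. It was −0.28 without DKO pool 1 and −0.18 without DKO pool 1 and wild-type pool 4. Psmc3 had 42.5, 53.7, 52.2 and 46.0 CPM in DKO pools 1 to 4, against 80.8, 63.1, 66.7 and 70.8 CPM in wild-type pools 1 to 4. Every DKO pool lay below every wild-type pool, and Psmc3 (ENSMUSG00000002102) had the smallest p of all members, and a log2 fold change of −0.53 ± 0.16 (SE, edgeR, unadjusted p = 0.00382, adjusted p = 0.469). DESeq2 gave Psmc3 an adjusted p of 0.107. Without DKO pool 1 its log2 fold change was −0.48 (unadjusted p = 0.00562), so the value does not rest on that pool. Psmc1 had 139.8, 234, 205 and 185 CPM in DKO pools 1 to 4, against 248, 303, 251 and 249 CPM in wild-type pools 1 to 4. Psmc1 (ENSMUSG00000021178) also showed no overlap, with DKO pool 1 lowest and wild-type pool 2 highest. Its log2 fold change was −0.46 ± 0.17 (SE, edgeR, unadjusted p = 0.0144, adjusted p = 0.469), and −0.34 without DKO pool 1 (unadjusted p = 0.0219). The remaining ATPases overlapped between genotypes, with −0.48 ± 0.23 for Psmc5, −0.42 ± 0.23 for Psmc2, −0.32 ± 0.18 for Psmc4 and −0.23 ± 0.15 for Psmc6 (log2 fold change ± SE). Psmc3 shares 8.25% of its exon bases with Slc39a13 on the opposite strand, a gene with 43 counts over all libraries. Psmc1 has processed pseudogenes over 95% identical to it, one of which had 28 counts over all libraries.

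**Figure D4:**
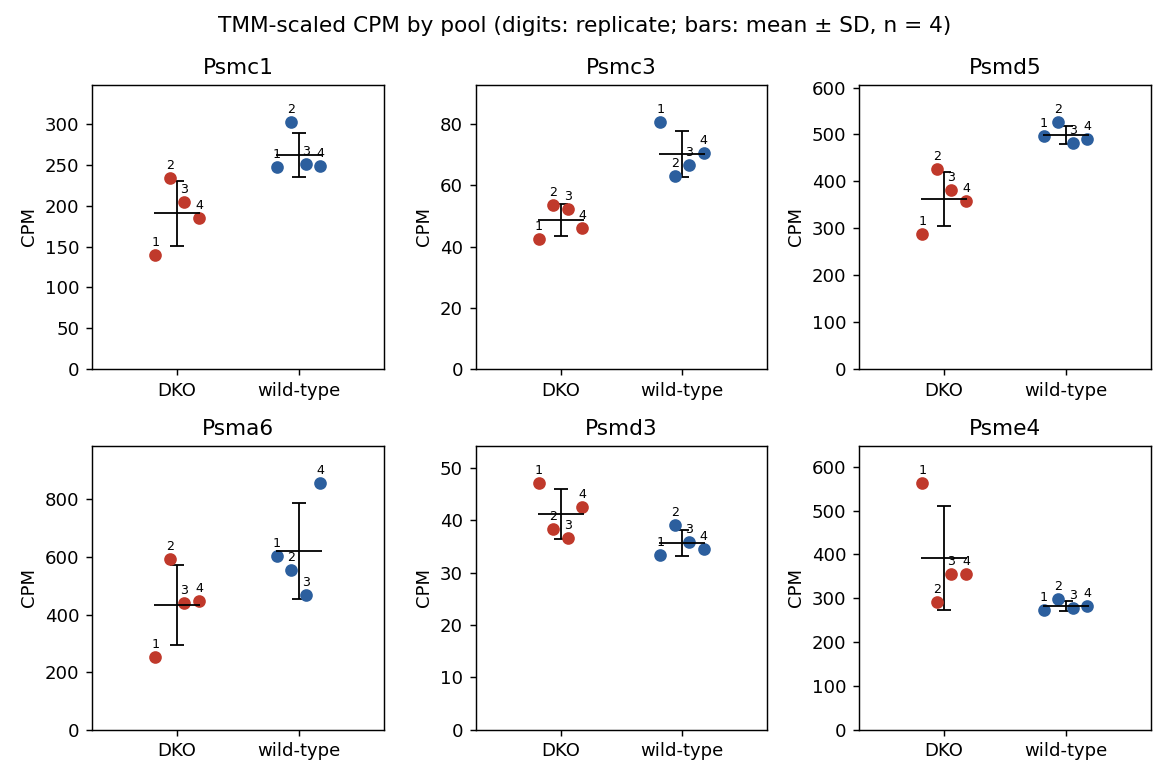
TMM-scaled CPM of 6 members by pool, with DKO pools in red left of wild-type pools in blue, replicate digits beside the points and bars of mean ± SD (n = 4 each). Psmc1, Psmc3 and Psmd5 show no overlap between genotypes, Psma6 and Psmd3 overlap, and the high Psme4 mean of DKO pools rests mainly on DKO pool 1.

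The base also holds Psmd1 and Psmd2, scaffolds that bind ubiquitin-like domains, and Psmd4, a receptor for ubiquitin chains. All of them were negative, with a median of −0.26, and the median was −0.19 without DKO pool 1 and −0.017 when wild-type pool 4 was left out as well. Psmd2 had 40.1, 46.2, 46.5 and 41.6 CPM in DKO pools 1 to 4, against 42.3, 54.7, 53.3 and 59.4 CPM in wild-type pools 1 to 4. Wild-type pool 1 lay within the DKO range, and the log2 fold change of Psmd2 was −0.26 ± 0.16 (SE, edgeR, unadjusted p = 0.12, adjusted p = 0.55). For Psmd1 it was −0.32 ± 0.20 and for Psmd4 −0.22 ± 0.18 (SE), with DKO pool 1 lowest in both.

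The lid has 8 members here, among them Psmd14, the deubiquitinase that cuts chains off the substrate. Of these 7 were negative and Psmd3 was positive, and the group median was −0.31, or −0.17 without DKO pool 1. Psmd13, a structural subunit, had 26.4, 43.6, 34.4 and 36.9 CPM in DKO pools 1 to 4, against 54.6, 47.4, 34.0 and 55.5 CPM in wild-type pools 1 to 4. DKO pool 1 was lowest, wild-type pool 3 lay below the other 3 wild-type pools, and the log2 fold change was −0.44 ± 0.20 (SE, edgeR, unadjusted p = 0.0473, adjusted p = 0.484). Without DKO pool 1 it was −0.33 (unadjusted p = 0.105). Psmd13 shares 10.1% of its exon bases with Sirt3 on the opposite strand, whose own log2 fold change was 0.26. Psmd3, another structural subunit, had 47.2, 38.3, 36.7 and 42.6 CPM in DKO pools 1 to 4, against 33.4, 39.1, 35.8 and 34.5 CPM in wild-type pools 1 to 4. It was the one constitutive subunit with a positive log2 fold change, 0.21 ± 0.16 (SE, edgeR, unadjusted p = 0.22, adjusted p = 0.63), with DKO pool 1 as its highest pool. The genotypes overlapped for Psmd3, and the sign was positive under every alternative fit tried, from 0.10 to 0.26. Psmd7, the inactive partner of Psmd14, had 335, 631, 618 and 617 CPM in DKO pools 1 to 4, against 725, 721, 583 and 867 CPM in wild-type pools 1 to 4. DKO pool 1 lay far below the other DKO pools, which were close together, and the log2 fold change was −0.40 ± 0.20 (SE), or −0.23 without DKO pool 1. Psmd11 had −0.37 ± 0.18, Psmd12 −0.33 ± 0.20, Psmd14 −0.29 ± 0.20, Psmd6 −0.24 ± 0.16 and Psmd8 −0.19 ± 0.18 (log2 fold change ± SE).

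**Figure D5:**
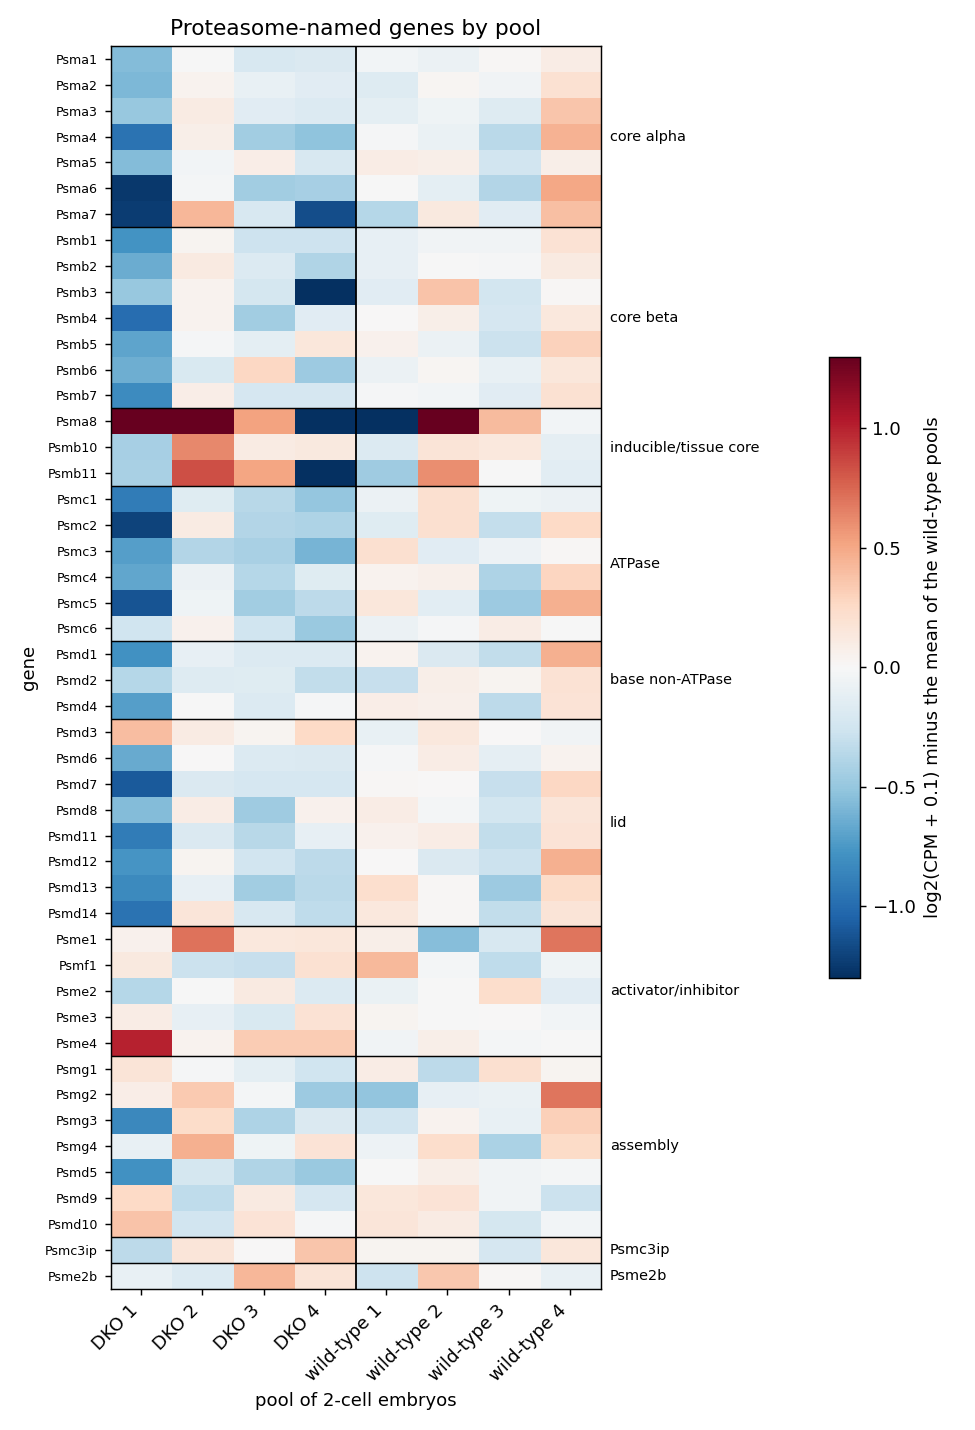
Heatmap of the 48 members tested by pool, as log2(CPM + 0.1) minus the mean of the wild-type pools, with DKO pools left of the line, wild-type pools right of it and colours capped at the ends of the scale. Blue in the column of DKO pool 1 runs through the constitutive core, base and lid, and Psmd3 and Psme4 are red there.

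Activators open the core without the regulatory particle. The group split, with 2 negative and 3 positive members and a median of 0.0051, which ranged from −0.061 to 0.081 with 1 pool left out. Psme4, the activator PA200 of nuclei and germ cells, had 563, 291, 356 and 355 CPM in DKO pools 1 to 4, against 273, 297, 278 and 281 CPM in wild-type pools 1 to 4. Psme4 (ENSMUSG00000040850) was higher in DKO pools 1, 3 and 4 than in any wild-type pool, and DKO pool 2 lay inside the wild-type range. Its log2 fold change of 0.47 ± 0.18 (SE, edgeR, unadjusted p = 0.0218, adjusted p = 0.469) was the one positive value with an unadjusted p under 0.05, and it was 0.24 without DKO pool 1 (unadjusted p = 0.0725). Psme1, of the interferon-inducible activator PA28, had 14.7, 23.0, 15.5 and 15.6 CPM in DKO pools 1 to 4, against 14.9, 9.56, 12.2 and 22.9 CPM in wild-type pools 1 to 4. Its partner Psme2 had 24.5, 31.6, 34.2 and 28.0 CPM in DKO pools 1 to 4, against 29.9, 31.6, 37.0 and 28.7 CPM in wild-type pools 1 to 4. Psme3, the nuclear PA28 gamma, had 162, 140.3, 132 and 173 CPM in DKO pools 1 to 4, against 155, 151, 152 and 148 CPM in wild-type pools 1 to 4. The genotypes overlapped for each of these, with 0.21 ± 0.27 for Psme1, −0.10 ± 0.18 for Psme2 and 0.0051 ± 0.14 for Psme3 (log2 fold change ± SE). Psme3 had the narrowest interval of them, −0.29 to 0.30, and the sign of its value changed with the fit. The inhibitor Psmf1 had 39.8, 30.1, 29.7 and 41.8 CPM in DKO pools 1 to 4, against 48.8, 35.8, 29.0 and 35.1 CPM in wild-type pools 1 to 4. Its log2 fold change was −0.073 ± 0.20 (SE), with wild-type pool 1 highest. Psme2 is 99.4% identical to Psme2b over 794 bases, and Psme1 has a pseudogene copy over 224 bases, so the counts of all of them are uncertain. Psme2b had 0.984, 0.922, 1.46 and 1.20 CPM in DKO pools 1 to 4, against 0.864, 1.38, 1.07 and 0.983 CPM in wild-type pools 1 to 4. The genotypes overlapped for Psme2b as well.

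Assembly factors build the particle and leave it. Psmg1 to Psmg4 pair up to assemble the alpha ring, and Psmd5, Psmd9 and Psmd10 chaperone ATPases into the base. Of the 7, 5 were negative and 2 positive, with a median of −0.06. It was −0.11 without DKO pool 1 and −0.12 without wild-type pool 2, and it turned positive without DKO pool 4, at 0.027, or when library size alone set the scale, at 0.0054. With log2 embryos per pool as a covariate it was 0.0086. Psmd5 had 288, 426, 381 and 357 CPM in DKO pools 1 to 4, against 496, 527, 482 and 491 CPM in wild-type pools 1 to 4. Every DKO pool of Psmd5 lay below every wild-type pool, and the wild-type pools were close together. The log2 fold change of Psmd5 (ENSMUSG00000026869) was −0.46 ± 0.15 (SE, edgeR, unadjusted p = 0.00755, adjusted p = 0.469), and −0.37 without DKO pool 1 (unadjusted p = 0.00847). Psmd9 had 53.6, 35.5, 48.3 and 38.4 CPM in DKO pools 1 to 4, against 49.3, 50.6, 43.1 and 36.8 CPM in wild-type pools 1 to 4. Psmd10 had 19.8, 12.8, 17.2 and 15.0 CPM in DKO pools 1 to 4, against 17.1, 16.4, 13.0 and 14.8 CPM in wild-type pools 1 to 4. Neither of these chaperones was ordered by genotype, with −0.034 ± 0.18 for Psmd9 and 0.082 ± 0.21 for Psmd10 (log2 fold change ± SE). Psmg1 had 31.0, 27.2, 25.1 and 23.0 CPM in DKO pools 1 to 4, against 29.4, 21.6, 31.9 and 28.3 CPM in wild-type pools 1 to 4. Psmg2 had 19.0, 22.6, 17.6 and 12.9 CPM in DKO pools 1 to 4, against 12.5, 16.6, 16.8 and 29.0 CPM in wild-type pools 1 to 4. Psmg3 had 22.4, 47.3, 30.3 and 35.2 CPM in DKO pools 1 to 4, against 33.6, 41.4, 37.5 and 49.6 CPM in wild-type pools 1 to 4. Their ranges overlapped, and wild-type pool 4 was highest for both Psmg2 and Psmg3. Psmg4 had 3.13, 4.66, 3.23 and 3.83 CPM in DKO pools 1 to 4, against 3.19, 3.95, 2.503 and 4.02 CPM in wild-type pools 1 to 4. The log2 fold changes were −0.064 ± 0.18 for Psmg1, −0.059 ± 0.26 for Psmg2, −0.26 ± 0.22 for Psmg3 and 0.12 ± 0.31 for Psmg4 (SE). Psmc3ip, which is no subunit, had 168, 238, 213 and 273 CPM in DKO pools 1 to 4, against 218, 218, 183 and 235 CPM in wild-type pools 1 to 4. Its log2 fold change was 0.063 ± 0.16 (SE), and it shares 21.2% of its exon bases with Mlx on the opposite strand.

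Among 29 other genes of the pathway, 17 were negative and 12 positive, with a median of −0.09, and none was called in edgeR, DESeq2 or limma-voom. At an unadjusted p under 0.05 edgeR found 2 lower (Uba6 and Ufd1) and 2 higher (Ecpas and Rad23b) of the 29, against 4.44% and 5.79% of all genes. The shares were 6.45% and 7.02% among genes with a mean of at least 10 CPM. Without DKO pool 1, 1 of the 29 was lower, Uba6, and 1 higher, Ecpas. Ecpas, a scaffold that binds the proteasome, had 140.2, 89.3, 94.2 and 95.4 CPM in DKO pools 1 to 4, against 72.0, 70.3, 86.8 and 70.9 CPM in wild-type pools 1 to 4. All DKO pools lay above all wild-type pools, at a log2 fold change of 0.48 ± 0.17 (SE, edgeR, unadjusted p = 0.0129, adjusted p = 0.469), and 0.30 without DKO pool 1 (unadjusted p = 0.0381). Uba6, a ubiquitin-activating enzyme, had 39.5, 46.7, 59.0 and 39.3 CPM in DKO pools 1 to 4, against 55.0, 76.1, 59.3 and 76.5 CPM in wild-type pools 1 to 4. Ufd1, an adaptor of the p97 unfoldase, had 48.6, 99.5, 66.0 and 87.6 CPM in DKO pools 1 to 4, against 106, 112, 81.0 and 134 CPM in wild-type pools 1 to 4. Both overlapped between genotypes, with log2 fold changes of −0.53 ± 0.18 (SE, edgeR, unadjusted p = 0.0112) for Uba6 and −0.52 ± 0.22 (SE, edgeR, unadjusted p = 0.0303) for Ufd1. Without DKO pool 1 these were −0.47 (unadjusted p = 0.021) for Uba6 and −0.36 (unadjusted p = 0.0699) for Ufd1. Rad23b, a shuttle for ubiquitinated proteins that was named after its values were seen, had 0.32 ± 0.15 (SE, edgeR, unadjusted p = 0.0433) and no overlap, and 0.26 without DKO pool 1 (unadjusted p = 0.0751). Nfe2l1, the regulator of proteasome genes, had 26.9, 19.2, 16.8 and 22.5 CPM in DKO pools 1 to 4, against 17.5, 17.8, 20.4 and 16.6 CPM in wild-type pools 1 to 4. Its genotypes overlapped, with a log2 fold change of 0.24 ± 0.20 (SE). Pomp, the maturation factor of the core, had 123, 187, 153 and 143 CPM in DKO pools 1 to 4, against 172, 177, 147 and 237 CPM in wild-type pools 1 to 4. Adrm1, a ubiquitin receptor of the base, had 86.1, 131, 126 and 168 CPM in DKO pools 1 to 4, against 145, 154, 127 and 168 CPM in wild-type pools 1 to 4. Akirin2, which brings proteasomes into the nucleus, had 277, 208, 211 and 217 CPM in DKO pools 1 to 4, against 216, 222, 229.6 and 190.0 CPM in wild-type pools 1 to 4. Log2 fold changes were −0.28 ± 0.18 for Pomp, −0.22 ± 0.19 for Adrm1 and 0.09 ± 0.15 for Akirin2 (SE), without order by genotype. DKO pool 1 was the lowest of the 8 pools for both Pomp and Adrm1 and the highest for Akirin2.

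Returning to the promoters, the 5 members with TGACNNNGC, Psmb5, Psmb6, Psmc6, Psmd9 and Psmd12, were all negative, with a median of −0.22. The 35 tested members with a window and no match had a median of −0.23, with 26 negative. For CCAAT the medians were −0.22 in 14 members with a match and −0.22 in 26 without. The medians with and without a match were close for both motifs, and no test was run on them.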

How the data were processed

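PolyA RNA of each pool was made into cDNA with a SMART-Seq v4 kit and read as single reads of 85 cycles, per the labels' protocols. The deposited tables, 1 for each library, hold raw whole-number counts of reads on genes, which the authors had not scaled. The submitters' processing notes list featureCounts 1.5.1, STAR 2.5.2b and, further, bcl2fastq 2.19.1, FastQC 0.11.5 and DESeq2 1.18.1, with NCBIM37 and mm9 as builds. No source names the strand setting or the treatment of reads with several matches, so overlapping genes and near copies may share reads. The reads carry no molecular identifiers, and the exact intervals of count shares cover counting error only, not the spread between pools.

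The main test was the robust quasi-likelihood test of edgeR 4.0.16 (R 4.3.3) after filterByExpr and TMM, with no covariate, Benjamini-Hochberg adjustment over all 14970 genes and a threshold of 0.05. Each edgeR SE was derived from that test, as the absolute log2 fold change divided by the square root of the F statistic. Confidence intervals are 95% t intervals built on these SEs. CPM is TMM-scaled, and its log2 form has a prior count of 2. Alternatives were DESeq2 1.42.0, limma-voom (limma 3.58.1) with sample quality weights, other scalings and filters, a replicate block, a covariate for pool size and libraries left out. The scripts were tested on simulated data. Gene lengths, chromosomes, overlaps and copies come from GENCODE vM21 (GRCm38), while the counts are on the earlier builds above. Near copies are matches of at least 95% identity over 200 bases. Pools are separate litters, and every pair within a genotype differed by more than sampling noise, with a chi-square per degree of freedom of at least 23.6. Over all genes tested, the median log2 fold change was 0.012, or 0.066 when only library size set the scale.

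The members and lists were chosen with earlier results of these data known. Values in every pool are given for each group's member with the smallest p in each direction, members without overlap, the catalytic, inducible and tissue-restricted subunits, activators, assembly factors, Psmc3ip and 7 pathway genes. Psma7 and Psmd7 were added after their values were seen.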

Additional observations from a re-analysis of the deposited data

Results flagged for a closer look

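In 5 of the 96 groups of 4 pools examined (48 members in each genotype), 1 pool lay far from the other 3 of its genotype by Dixon's test. The groups share the same pools and are not independent, so the 1 in 20 of this test gives no expected number for them. DKO 1 was low for Psmd7, at 8.389 log2 CPM (335 CPM, against 617 to 631 CPM in the other DKO pools), and for Psmd1, at 6.13 log2 CPM (69.9 CPM, against 106 to 112 CPM). DKO 2 was high for Psme1, at 4.53 log2 CPM (23.0 CPM, against 14.7 to 15.6 CPM). Among wild-type pools, wild-type 3 was low for Psma5, at 6.645 log2 CPM (100.02 CPM, against 125 to 128 CPM), and wild-type 2 was high for Psmc1, at 8.243 log2 CPM (303 CPM, against 248 to 251 CPM).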

How the results depend on the processing

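The count of members called at an adjusted p under 0.05 was 0 in edgeR, DESeq2 and limma-voom and in every other fit tried, including adjusted p thresholds of 0.01 and 0.1. The constitutive subunits had 27 to 30 negative log2 fold changes of 31. The count of members lower at an unadjusted p under 0.05, 5 in edgeR, was 3 with scaling by library size alone, 9 without a filter on low counts, 10 with log2 embryos per pool as a covariate, and 3 without both libraries numbered 1, without DKO 1 and wild-type 4, or without DKO 4 and wild-type 1. With 1 library left out it ranged from 3 to 20, with 20 without DKO 2 and 10 without wild-type 3. The count of members higher, 1 in edgeR, was 0 without both libraries numbered 1 and without DKO 4 and wild-type 1, and 0 to 1 with 1 library left out. Without DKO 1 and wild-type 4, the median log2 fold change was −0.175 for the ATPases and −0.0169 for the other base subunits. The sum of member levels was 9534 in DKO and 11260 in wild-type pools when the longest annotated transcript set the length. The cause of these shifts was not tested.

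Of 57 genes followed through the fits, 40 kept 1 sign throughout and 17 changed it in some fit, where the log2 fold changes are given here. With DESeq2, the value was −0.00668 for Psme3. With limma-voom, they were −0.232 for Psma8, −0.269 for Psmb11, −0.0525 for Psme3 and −0.00271 for Akirin2. With RLE scaling, the value was −0.00667 for Psme3. With scaling by library size alone, they were 0.0206 for Psmd9 and 0.00538 for Psmg2. Without a filter on low counts, the value was −0.0026 for Psme3. Among genes with a mean of at least 10 CPM, the value was 0.00738 for Psmd9. With log2 embryos per pool as a covariate, they were −0.0117 for Psme3, 0.00275 for Psmd9, 0.046 for Psmg1, 0.00863 for Psmg2, −0.0542 for Psmc3ip and −0.013 for Psme2b. Without both libraries numbered 1, they were 0.00651 for Psmb5, −0.0141 for Psme3, 0.0259 for Psmf1 and −0.0127 for Akirin2. Without DKO 1 and wild-type 4, they were 0.000363 for Psma2, 0.0487 for Psma3, 0.101 for Psmb5, −0.0393 for Psme3, −0.0423 for Psmd10, 0.206 for Psmg2, 0.00375 for Psmg3 and −0.0699 for Akirin2. Without DKO 4 and wild-type 1, they were −0.0495 for Psme3, 0.0741 for Psmd9, 0.0271 for Psmg1, −0.0411 for Psmc3ip and −0.0305 for Psme2b. With 1 library left out, the values ranged over −0.0228 to 0.132 for Akirin2, −0.0531 to 0.295 for Psmb10, −0.371 to 0.373 for Psmb11, −0.051 to 0.171 for Psmc3ip, −0.0348 to 0.179 for Psmd10, −0.151 to 0.0547 for Psmd9, −0.0496 to 0.225 for Psme2b, −0.0612 to 0.0686 for Psme3, −0.182 to 0.081 for Psmf1, −0.168 to 0.000629 for Psmg1, −0.215 to 0.225 for Psmg2 and −0.0128 to 0.201 for Psmg4. The settings that leave out DKO 1 with wild-type 4, or DKO 4 with wild-type 1, were chosen after seeing the data.

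Deviations of same-numbered pools from their genotype means correlated little (0.00235, 0.0174, 0.0343 and 0.078), and DKO 1 correlated best with wild-type 3 (0.224). The labels name no pairing behind the numbers. These correlations cannot settle whether same-numbered pools were handled together. With the replicate number as a block, 0 members were called, 39 had a negative log2 fold change and 7 were lower at an unadjusted p under 0.05, with Psmb11 at −0.187 and Psme3 at −0.00288. Depth limits Psma8, Psmb8 and Psmb11, which had few counts in every pool.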
